A study of Rattus norvegicus with 24 samples.

Results

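The genes described are 10 alpha and beta tubulin genes, the beta tubulins Tubb2a, Tubb2b, Tubb3, Tubb4b, Tubb5 and Tubb6 and the alpha tubulins Tuba1a, Tuba1b, Tuba1c and Tuba4a. They were chosen by symbol, through the accession that the array gives for each probe. All 10 of them, out of 15443 genes with a symbol, were on the array, and 12 of its 30367 probes read them. All 10 passed the filter on dim probes and were among the 21253 features tested, a feature being a gene or an unnamed probe. These genes were put forward with their differences between exposed and control rats already known, so every difference from control is given as a description. Where calls by p-value are counted for those differences, they describe the same known values and are not read as tests. The difference between the sexes played no part in that choice and was tested.

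Lung RNA was measured in 24 Fischer-344 rats obtained at 7 to 8 weeks of age, with 3 males and 3 females in each of 4 groups. The control group breathed filtered clean air. The other groups breathed hexanal, a straight-chain aldehyde, at 600, 1000 or 1500 ppm for 4 h per day on 5 days per week; the protocol in the labels gives 5 weeks and the same figures in mg per cubic meter, while the study's text gives 4 weeks. The group names and that text give ppm, which is used here, and the length of the exposure stays unsettled. No rat carried an allele or a treatment other than its atmosphere, as far as the labels tell, and each array held the Cy3-labeled RNA of 1 rat.

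Each value is a level, the log2 of the signal of a probe minus the log2 of the 75th percentile signal of its own array, so that 0 is the brightness of that percentile and a difference of 1 is a doubling of the signal. Levels of a probe were compared between rats, and never between probes. The 75th percentile signal lay between 1700.86 and 3132.89, no spot was saturated, and all 11 lung marker genes were well above background on every array. The arrays lay on 6 slides of 4 arrays. Each slide held rats of 1 sex and of neighboring groups only (control with 600 ppm, 600 with 1000 ppm, or 1000 with 1500 ppm). Dose and slide therefore cannot be fully told apart, and sex and slide cannot be told apart. Precision is limited by how many arrays there were. In whole lung, more cells of a type and more RNA in each cell cannot be told apart.

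Alpha and beta tubulin pair into the dimers that make up microtubules, the hollow filaments that carry cargo, separate chromosomes and form the core of cilia. Mammals have several genes for each, which encode very similar proteins but are used in different cell types. Cells hold the supply of tubulin steady partly through their mRNA, which is degraded while it is translated when free dimers are in excess. In the lung, tubulin is made in all cells and is abundant in the ciliated cells of the airways.

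The promoters of 4 of these genes are shown because their genes differed most clearly in behavior: Tubb4b, Tubb5 and Tuba1a were higher in the exposed groups, and Tubb2a was not. Each line holds the 250 bases before the RefSeq start of the gene on the rat assembly GRCr8, read 5′ to 3′ along the strand of the gene, at chr3:28438456-28438705 on the minus strand for Tubb4b, chr20:2917327-2917576 on the plus strand for Tubb5, chr7:131995820-131996069 on the minus strand for Tuba1a and chr17:31001936-31002185 on the plus strand for Tubb2a. Capitals mark the 2 motifs CCAAT and TATAAA, both searched on both strands.
Tubb4b: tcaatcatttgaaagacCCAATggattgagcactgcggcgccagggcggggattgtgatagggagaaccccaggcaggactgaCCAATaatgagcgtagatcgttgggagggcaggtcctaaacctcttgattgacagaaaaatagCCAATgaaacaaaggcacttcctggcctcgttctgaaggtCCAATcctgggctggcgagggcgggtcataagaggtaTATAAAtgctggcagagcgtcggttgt
Tubb5: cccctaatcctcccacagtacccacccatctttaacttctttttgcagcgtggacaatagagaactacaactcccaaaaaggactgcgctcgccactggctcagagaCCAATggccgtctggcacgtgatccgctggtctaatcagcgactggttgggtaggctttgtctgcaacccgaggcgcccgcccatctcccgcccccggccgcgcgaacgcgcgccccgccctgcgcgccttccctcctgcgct
Tuba1a: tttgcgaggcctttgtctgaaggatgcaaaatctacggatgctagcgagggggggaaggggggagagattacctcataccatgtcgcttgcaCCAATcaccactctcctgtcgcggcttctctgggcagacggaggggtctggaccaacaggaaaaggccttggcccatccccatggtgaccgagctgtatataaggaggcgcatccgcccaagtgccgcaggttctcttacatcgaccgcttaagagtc
Tubb2a: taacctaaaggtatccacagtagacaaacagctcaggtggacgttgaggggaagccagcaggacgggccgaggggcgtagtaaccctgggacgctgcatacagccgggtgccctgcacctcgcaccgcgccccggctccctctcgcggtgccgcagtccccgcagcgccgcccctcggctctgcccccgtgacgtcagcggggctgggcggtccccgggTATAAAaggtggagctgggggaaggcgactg

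All 10 genes had an entry among the 33469 promoters searched. The promoter of Tubb4b held 4 copies of CCAAT, whose first bases lie 233, 167, 104 and 64 bases before the start, and a TATAAA 27 bases before it. At least 4 copies of CCAAT were found in 0.565% of all promoters of this length, and at least 1 TATAAA in 12.9%. Tubb5, Tuba1a, Tuba1b, Tubb2b, Tubb3 and Tubb6 had 1 CCAAT each and Tuba1c had 2, against 34.0% of all promoters with at least 1 and 9.42% with at least 2. Tubb2a and Tuba4a had none, and Tubb2a was the only gene beside Tubb4b with a TATAAA, 31 bases before its start. The third motif searched, GGGCGG, was in 9 of the 10 promoters and in 30.5% of all; it was missing from that of Tubb2b. The start of Tuba1a lies close to those of Tuba1b and Tuba1c on chromosome 7. These matches describe letters and not binding.

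Tubb4b (NM_199094), a beta tubulin used in many tissues and built into motile cilia, was the tubulin whose level differed most between exposed and control rats. Its level ran from 5.19 through a median of 5.39 to 5.70 in the control group and from 5.82 through 5.93 to 6.41 at 600 ppm. It ran from 6.28 through 6.45 to 6.57 at 1000 ppm and from 6.28 through 6.38 to 6.54 at 1500 ppm. Every exposed rat was above every control rat, 4 of the 6 rats at 1000 ppm were above all rats at 600 ppm, and the groups at 1000 and 1500 ppm overlapped. The signal was 1.49-fold that of the control group at 600 ppm, 1.99-fold at 1000 ppm and 1.92-fold at 1500 ppm, which are log2 differences of 0.57, 0.99 and 0.94 with a standard error of 0.10 each (n = 6 rats in a group). From 600 to 1000 ppm the difference was 0.42, and from 1000 to 1500 ppm it was -0.05, each with a standard error of 0.10, so the 2 highest doses were not separated. The fold at 600 ppm lay just under the study's threshold of 1.5. It reached that threshold when any 1 of control rats 21 and 22 or of rats 8, 26, 27 and 28 at 600 ppm was left out, and the log2 difference then ran from 0.59 to 0.62; over all 24 rats left out in turn it ran from 0.49 to 0.62.

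**Figure D1:**
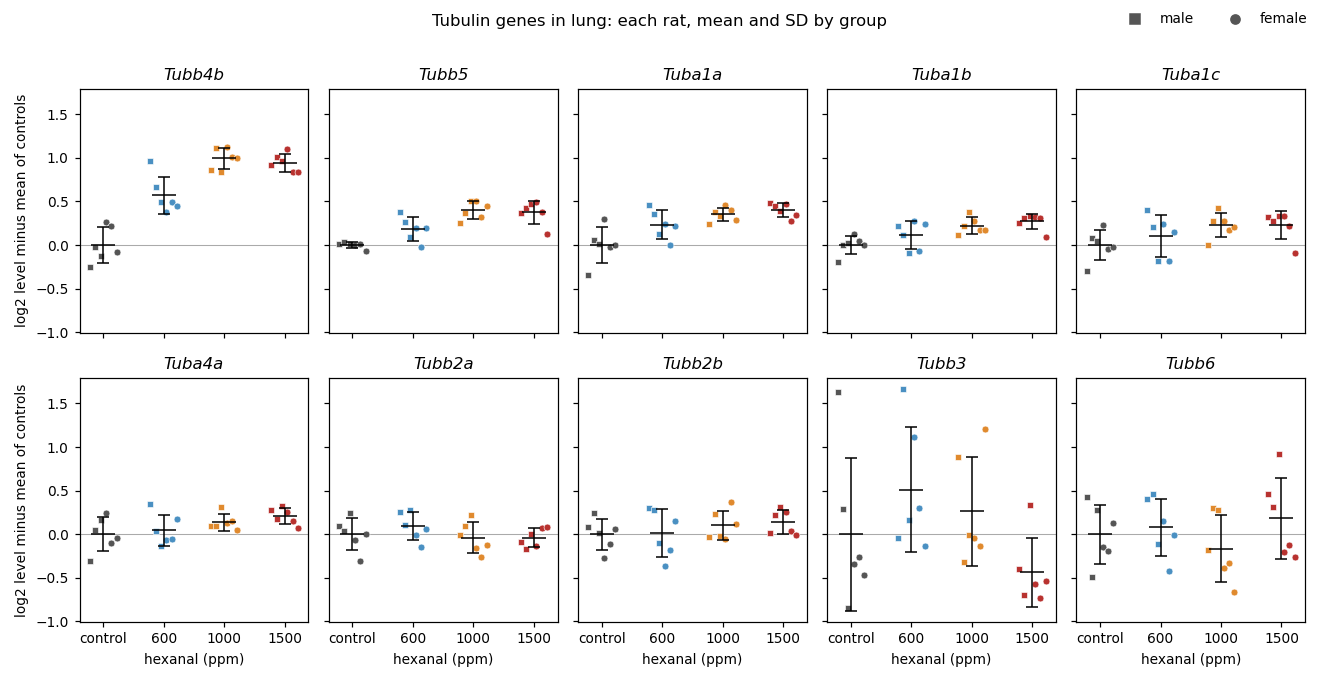
Log2 level of the 10 tubulin genes in each of 24 rats minus the mean of the 6 control rats (vertical axis), by hexanal group (horizontal axis). Squares are males, circles are females, and the black marks are the group mean and SD. All exposed rats are above all control rats for Tubb4b, with group medians of 5.93, 6.45 and 6.38 against 5.39, and the points of Tubb3 and Tubb6 spread widely in every group.

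Tubb5 (NM_173102), a broadly expressed beta tubulin, had the smallest spread among the control rats, with levels between 2.91 and 3.01 and a median of 2.99. At 600 ppm the level ran from 2.96 through 3.17 to 3.36, and 5 of the 6 rats were above all control rats. At 1000 ppm it ran from 3.24 through 3.39 to 3.48, and at 1500 ppm from 3.11 through 3.38 to 3.47, with all rats of both groups above all control rats. The log2 differences from control were 0.18, 0.40 and 0.38 with a standard error of 0.07, or 1.14-fold, 1.32-fold and 1.30-fold. The 2 highest doses differed by -0.02 and overlapped, and 3 rats of each were above all rats at 600 ppm. The lowest rat at 1500 ppm, the female numbered 38, was the only one of that group below the range at 1000 ppm.

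Among the alpha tubulins, Tuba1a (NM_022298), best known from neurons and present in most tissues, differed most. Its level ran from 5.36 through 5.71 to 6.00 in the control group, from 5.71 through 5.93 to 6.17 at 600 ppm, from 5.95 through 6.06 to 6.16 at 1000 ppm and from 5.98 through 6.12 to 6.18 at 1500 ppm. The ranges of all groups overlapped that of the control group, in which 1 female was the highest at 6.00. The log2 differences from control were 0.24, 0.35 and 0.40 with a standard error of 0.09, so the signal at 1500 ppm was 1.32-fold that of the control group. The probe for Tuba1a is printed as 10 spots on each array, and the SD between those spots had a median of 0.04 over the arrays, while the SD between rats within a group was 0.14.

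Tuba1b, an alpha tubulin made in nearly all cells, had levels from 4.98 to 5.31 in the control group, from 5.09 to 5.45 at 600 ppm, from 5.29 to 5.56 at 1000 ppm and from 5.27 to 5.51 at 1500 ppm. At 1000 and at 1500 ppm, 5 of the 6 rats were above all control rats. Its differences from control were 0.11, 0.22 and 0.27 with a standard error of 0.07. The second probe of Tuba1b gave 0.11, 0.25 and 0.26 with a standard error of 0.11. Tuba1c, another alpha tubulin of most tissues, gave 0.11, 0.22 and 0.23 with a standard error of 0.11, and its second probe gave 0.21, 0.33 and 0.23 with a standard error of 0.14. The mean of both probes of each gene was thus above the control mean at every dose, by amounts that overlap within their errors. Tuba4a, which is found in platelets and muscle and whose protein is made without the final tyrosine that other alpha tubulins carry, gave 0.05, 0.14 and 0.21 with a standard error of 0.09. Its levels ran from 2.34 to 2.89 in the control group and from 2.72 to 2.98 at 1500 ppm.

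The remaining 4 genes are all beta tubulins. Tubb2a, known from brain and other tissues, had a median of 3.37 in the control group and of 3.44, 3.28 and 3.30 in order of dose, with differences of 0.09, -0.04 and -0.04 (standard error 0.09). Tubb2b, its close neighbor on chromosome 17, gave 0.01, 0.10 and 0.14 (standard error 0.11), with means in the order of dose. Both genes overlapped the control group at every dose.

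Tubb3, the beta tubulin of neurons, was dim, with a median signal between 35.9 and 66.4 in the 4 groups, and was not well above background in the female numbered 38. Its level ran from -6.41 through -5.87 to -3.94 in the control group and from -6.30 through -6.13 to -5.23 at 1500 ppm. The difference from control was 0.51 at 600 ppm, 0.26 at 1000 ppm and -0.44 at 1500 ppm, each with a standard error of 0.37. With normexp background correction these became -0.09, -0.45 and -0.34. With 1 rat left out they ran from 0.28 to 0.84, from 0.07 to 0.59 and from -0.61 to -0.11. Without control rat 1, the highest of its group, Tubb3 was called higher at 600 ppm by the fold of the study and an unadjusted limma p under 0.05. Tubb6, a beta tubulin of muscle and many other tissues, gave 0.08, -0.17 and 0.18 with a standard error of 0.21. The SD between rats of a group was 0.68 for Tubb3 and 0.38 for Tubb6, and it lay between 0.11 and 0.20 for the other 8 genes.

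**Figure D2:**
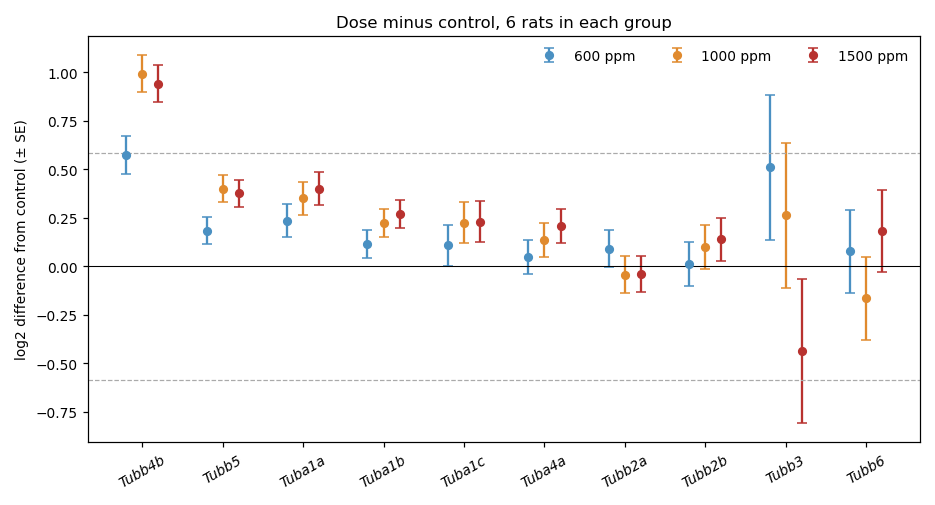
Log2 difference from the control group (vertical axis) for each tubulin gene (horizontal axis) at 600, 1000 and 1500 ppm; points are limma estimates over 6 rats against 6 and bars are standard errors. Dashed lines mark a fold of 1.5. Tubb4b lies past the line at 1000 and 1500 ppm, at 0.99 and 0.94, and just under it at 600 ppm, at 0.57.

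Counted over the genes, 10 of 10 lay above the control mean at 600 ppm, and 8 of 10 did at 1000 and at 1500 ppm, while 49.6%, 51.3% and 53.8% of all features did. The median log2 difference of the 10 genes was 0.11, 0.22 and 0.22, against medians of -0.0013, 0.0047 and 0.0127 over all features. At the threshold of the study, which asks for 1.5-fold or more together with an unadjusted p-value under 0.05, Tubb4b was the gene called higher at 1000 ppm (1.29% of all features) and at 1500 ppm (0.701%), none was called higher at 600 ppm (0.16%), and none was called lower (0.456%, 0.343% and 0.522% in order of dose). After Benjamini-Hochberg adjustment of limma over all features, the counts were 0 genes at 600 ppm (0% of features), 2 at 1000 ppm (0.0188%), namely Tubb4b and Tubb5, and 1 at 1500 ppm (0.00471%), Tubb4b. The adjusted call of Tubb5 at 1000 ppm was lost under 7 of 13 other settings and in 18 of the 24 fits that leave out 1 rat, while that of Tubb4b was lost at both doses under 1 setting, the slide as a fixed block. All 6 rats were above all 6 control rats for 1 gene at 600 ppm (0.0941% of features), and for 2 genes, Tubb4b and Tubb5, at 1000 ppm (0.259%) and 1500 ppm (0.311%). No gene had all exposed rats below the control rats, as 0.184%, 0.198% and 0.169% of features had. The group means followed the order of dose for 5 genes, Tubb2b, Tuba1a, Tuba1b, Tuba1c and Tuba4a, and for 6.08% of features. Since these contrasts led to the choice of the genes, the shares are given beside the counts and nothing is read from them. The 3 comparisons share their control rats.

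Each slide allowed a comparison of 2 neighboring groups on the same glass. For Tubb4b, the rat at 600 ppm exceeded the mean of the 3 control rats by 1.1 on the first male slide and by 0.25 on the first female slide, and it was above all 3 on both. The 2 rats at 1000 ppm exceeded the 2 at 600 ppm by 0.41 in males and by 0.60 in females, again without overlap. The 3 rats at 1500 ppm differed from the single rat at 1000 ppm by 0.12 in males and by -0.08 in females. Within slides, then, the level was higher at each step up to 1000 ppm in both sexes, and the last step differed in sign between them. Tubb5 gave 0.36 and 0.21 at the first step, 0.13 and 0.33 at the next and -0.08 and -0.12 at the last, in males and females. Tuba1a gave 0.56 and 0.15, then 0.07 and 0.32, and then 0.11 and 0.07. With the slide as a fixed block, the differences of Tubb4b from control became 1.18 at 1000 ppm and 1.20 at 1500 ppm, and the adjusted calls at both doses went to 0 genes.

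**Figure D3:**
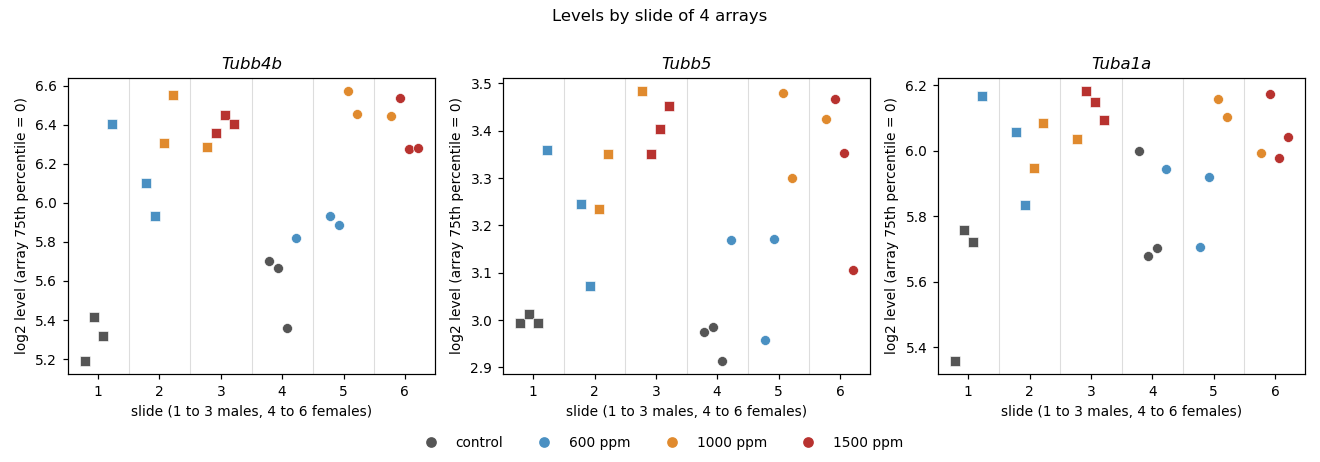
Log2 level (vertical axis, 0 is the 75th percentile of the array) of Tubb4b, Tubb5 and Tuba1a for the 4 arrays of each of 6 slides (horizontal axis); color is the hexanal group, squares are males and circles are females. For Tubb4b the array at 600 ppm lies above the 3 control arrays on both slides that hold them, by 1.1 and 0.25 over their mean.

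Male and female rats were compared over all 4 groups by limma with the slide as a random block, and 14.8% of features differed at an adjusted p-value under 0.05, 5.05% higher and 9.77% lower in males. Of the 10 genes, 1 differed. Tubb6 (NM_001025675) was higher in males, with a mean level of -0.11 against -0.57 in females, a difference of 0.46 (standard error 0.14, adjusted p = 0.0318). The 3 males lay above the 3 females without overlap at 1000 ppm, from -0.55 to -0.07 against -1.02 to -0.70, and at 1500 ppm, from -0.06 to 0.55 against -0.63 to -0.49. They overlapped in the control group, from -0.86 to 0.06 against -0.56 to -0.23, and at 600 ppm, from -0.48 to 0.09 against -0.78 to -0.22. Under the 9 other settings of the analysis the difference of Tubb6 ran from 0.45 to 0.62, with adjusted p-values of limma from 1.78e-05 to 0.0346. The adjusted p of limma lay between 0.0506 and 0.0747, above the threshold, without any 1 of 7 rats, control rat 3, rats 6 and 7 at 600 ppm, rats 12 and 33 at 1000 ppm and rats 36 and 38 at 1500 ppm; the difference without each of them lay between 0.43 and 0.46. Each slide holds 1 sex, so no value within a slide can be given. A difference between the sexes therefore cannot be told apart from one between slides, for Tubb6 and for the features counted here.

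Tubb2a was 0.17 higher in males (standard error 0.06, adjusted p = 0.0574 from limma), which did not pass. It passed under 5 of the 9 other settings, at adjusted limma p-values of 0.00139 with normexp, 0.0287 with median scaling, 0.00319 without scaling, 0.0156 without the slide block and 0.000302 with array weights, and the highest under the other 4 was 0.129. With 1 rat left out it passed, at adjusted p-values of limma between 0.03 and 0.0489, without control rat 23, rat 7 or 28 at 600 ppm, rat 11 at 1000 ppm or rat 17 at 1500 ppm. The other 8 genes differed between the sexes by -0.03 to 0.27, with adjusted limma p-values of 0.354 or more. For Tubb4b the difference was -0.02 with a standard error of 0.07.

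Whether the dose effect differed between the sexes was tested in the same model. No tubulin gene passed an adjusted p-value of 0.05 at any dose, while 0%, 0% and 1.46% of features did at 600, 1000 and 1500 ppm. At 600 ppm, Tubb4b exceeded the control group by 0.87 in males and by 0.29 in females (standard error 0.12 each), a difference of 0.58 with a standard error of 0.17; its unadjusted limma p was 0.00388 and its adjusted p 0.9995. Tuba1a exceeded the control group by 0.43 in males and 0.07 in females at that dose, with an unadjusted limma p for the difference of 0.0494. These were the only tubulin genes under an unadjusted 0.05 at 600 ppm, where 4.26% of features were. None was at 1000 ppm (5.58%), and at 1500 ppm Tubb2a was, with -0.22 in males and 0.13 in females (an unadjusted p of 0.0414 and an adjusted p of 0.309 from limma, against 14.8% of features). At 1000 and 1500 ppm, Tubb4b was 1.12 and 1.14 above the control group in males and 0.90 and 0.79 above it in females, with standard errors of 0.13.

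**Figure D4:**
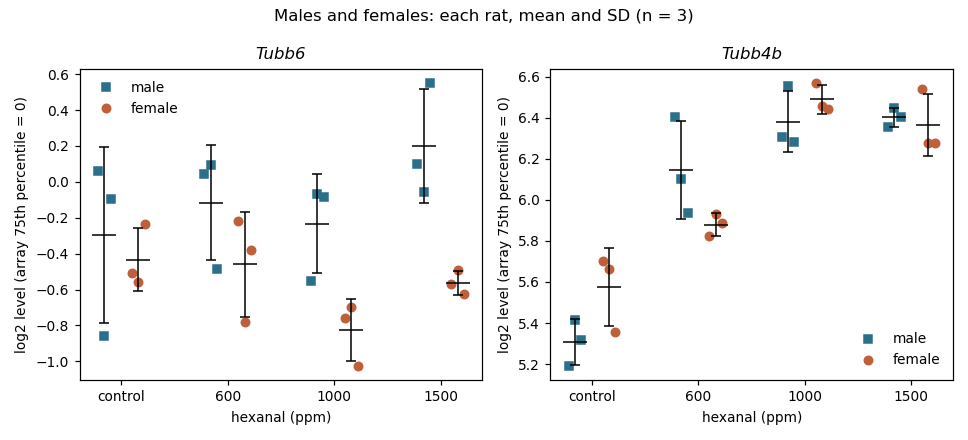
Log2 level (vertical axis, 0 is the 75th percentile of the array) of Tubb6 and Tubb4b by hexanal group (horizontal axis) in males and females, with the mean and SD of 3 rats. Males are above females for Tubb6 without overlap at 1000 and 1500 ppm, where the means of Tubb4b were 6.38 and 6.40 in males and 6.49 and 6.36 in females.

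The genes were also compared with each other over the 24 arrays, which share their groups, slides and scaling; these correlations are descriptions. Among Tubb4b, Tubb5, Tuba1a, Tuba1b, Tuba1c and Tuba4a, a group put together after their values were seen, the 15 pairs had Pearson correlations from 0.57 to 0.90 with a median of 0.80. After the mean of each group and sex was taken away, the same pairs still had correlations from 0.43 to 0.95 with a median of 0.71. The 30 pairs that include Tubb2a, Tubb2b, Tubb3 or Tubb6 ran from -0.48 to 0.44 with a median of 0.06. The dimmer probe of Tuba1b followed the brighter probe of Tuba1c at 0.99, more closely than it followed the other probe of its own gene, at 0.90. The coding sequences of these genes are nearly alike, the sequences of the probes were not used here, and whether a probe also reads another tubulin was not tested.

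Of 12409 named genes compared with Tubb4b, whose correlations had a median of -0.0056, the highest was that of Tuba1a (Pearson 0.88, Spearman 0.85) and the next that of Tubb5 (0.87 and 0.83). Tuba1b had rank 5 (0.72 and 0.62), Tuba1c was at 0.62 and Tuba4a at 0.57. The tubulins were put forward with their differences between exposed and control rats known, and those differences enter these correlations and ranks. The 5 nearest genes that are not tubulins were Ccl12, a chemokine, at 0.78, the chitinase genes Chia at 0.73 and Chial1 at 0.71, Gpr34, a receptor of macrophages and microglia, at 0.70, and Chchd5 at 0.67. Without control rats 1 and 3, the arrays farthest from the median of Tubb4b, the values were 0.84 for Tuba1a, 0.88 for Tubb5 and 0.65 for Ccl12. After group and sex means were removed, Tuba1a was at 0.63, Tuba1c at 0.54, Tuba4a at 0.53, Tubb5 at 0.48 and Tuba1b at 0.43. The 5 genes that are not tubulins ran from 0.26, for Chial1, to 0.46, for Gpr34, with Ccl12 at 0.40. These 5 genes exceeded the control group at each dose, Ccl12 by 0.93, 1.18 and 1.56 with a standard error of 0.31. They were picked for following Tubb4b, whose exposed rats were all above the control rats, so this direction comes largely from the choice.

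Other genes of the tubulin system were taken from lists of symbols. Of the other tubulins, 7 were on the array and 6 were tested, and none was called at any dose. Tubb4a, a close relative of Tubb4b best known from brain, differed from control by 0.14, 0.15 and 0.04 with a standard error of 0.12. Tubg1, the gamma tubulin that nucleates microtubules, gave 0.14, 0.11 and 0.07 with a standard error of 0.05. Tuba8 gave 0.22, 0.39 and 0.63 with a standard error of 0.31, Tuba3a gave -0.02, 0.03 and -0.12 with 0.18, and Tuba3b gave 0.10, 0.12 and -0.10 with 0.12. Tubd1, a tubulin of the centriole, gave -0.07, -0.03 and 0.15 with 0.09, and it was lower in males by -0.21 (adjusted p = 0.0226 from limma).

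No gene of the machinery around tubulin was called with all 24 rats. Of all features, 0.16%, 1.29% and 0.701% were called higher and 0.456%, 0.343% and 0.522% lower, in order of dose. Lists this short would hold few calls at such shares. Of 19 tested genes that fold tubulin (the CCT chaperonin, prefoldin and the tubulin cofactors), 0 were called at any dose, and their median log2 differences were 0.03, -0.0001 and 0.01. Of 5 genes for the decay of tubulin mRNA, which include Ttc5, the factor that recognizes newly made tubulin, 0 were called, with medians of -0.03, -0.07 and -0.05. The 12 genes that modify tubulin and the 29 that bind microtubules or set their dynamics also had 0 called at each dose, with medians between -0.0039 and 0.04. Of these 29, 2, 7 and 2 had an unadjusted limma p under 0.05 in order of dose. Of the genes that fold tubulin, serve the decay of its mRNA or modify it, at most 2 in each list did at any dose. Over all features, 920, 1910 and 1482 of 21253 did. Leaving out rat 26 at 600 ppm gave 1 lower call among these lists at that dose.

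Markers of cells that could carry tubulin mRNA were followed beside these values. Of 14 ciliated cell markers, all 14 were well above background on every array, and 5 were called higher at 1000 ppm: Ccdc40 and Dnai2, which serve the assembly and motor arms of the ciliary axoneme, by 0.80 and 0.66, Dynlrb2, a dynein light chain, by 0.64, Tekt4, a protein inside the microtubules of cilia and flagella, by 0.61, and Sntn by 0.60. None was called at 600 or 1500 ppm, and the median difference of the list was 0.11, 0.52 and 0.13 in order of dose, with all 14 above 0 at 1000 ppm. The summed level of the list, in units of the 75th percentile, ran from 71.7 through a median of 84.4 to 99.2 in the control group, from 79.2 through 84.7 to 96.8 at 600 ppm, from 80.4 through 98.3 to 117 at 1000 ppm and from 81.6 through 87.5 to 107 at 1500 ppm. Such a sum adds signals on the linear scale, so brighter genes weigh more in it. Over the 24 arrays, the log2 of this sum went with Tubb4b at a Pearson correlation of 0.47, and at 0.44 after group and sex means were removed, as a description. For the other 9 genes the correlation ran from -0.53, for Tubb2a and Tubb6, to 0.35, for Tubb5. The part of ciliated cells in the tubulin values was not tested.

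Heart muscle genes, of which 11 were on the array, had summed levels from 3.83 through a median of 7.26 to 38.0 in the control group, from 5.44 through 18.2 to 63.0 at 600 ppm, from 9.12 through 54.6 to 133 at 1000 ppm and from 3.83 through 14.5 to 135 at 1500 ppm. At 1000 ppm, 5 of the 9 tested genes were called higher, against 1.29% of all features. They were Tnnt2, by 2.48, Tnnc1, by 2.40, Tnni3, by 2.02, Pln, by 1.49, and Actc1, by 1.26. Myh6 and Myl7 had larger differences there, 4.93 and 4.04, with standard errors of 2.52 and 2.05, and were not called. Over the 24 arrays, the log2 of the sum of the heart list went with Tubb5 at a Pearson correlation of 0.53 and with Tubb4b at 0.35. After group and sex means were removed, the values were 0.62 and 0.18, as a description. The part of heart muscle RNA in the tubulin values was not tested. The dividing cell list of 14 genes had 0 called and medians of -0.09, -0.17 and -0.30. The neuron and platelet lists, with 5 tested genes each, had 0 called at each dose. In order of dose, their medians were 0.16, 0.32 and 0.49 for neurons and -0.17, -0.11 and 0.09 for platelets. All 5 tested neuron genes lay above 0 at 1500 ppm. Of the 9 neuron genes on the array, 2 were well above background on every array. Nefl, a neuronal filament gene, was not so on any array.

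**Figure D5:**
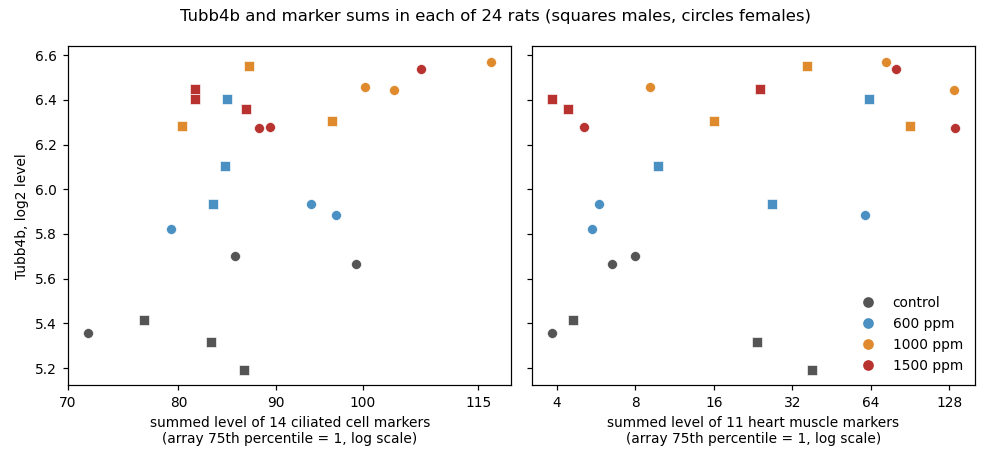
Log2 level of Tubb4b (vertical axis) against the summed level of 14 ciliated cell markers and of 11 heart muscle markers (horizontal axes, log scale, 1 is the 75th percentile of the array) in each of 24 rats; color is the hexanal group. The group medians of the ciliated sum are 84.4, 84.7, 98.3 and 87.5 and those of the heart sum 7.26, 18.2, 54.6 and 14.5 in order of dose, and Tubb4b goes with them at Pearson correlations of 0.47 and 0.35.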

How the data were processed

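The authors' deposited intensities are one-colour Agilent processed signals (Feature Extraction 11.5.1.1), corrected for local background on each array, with no scaling from array to array; the deposited value table holds the same intensities for at least 99.58% of probes. Control and outlier spots were left out, and 42877 spots were averaged into 30367 probes. Of these, 18355 were matched by accession to 15443 symbols of GRCr8. Levels (log2 signal relative to the array's 75th percentile) were fitted with limma 3.58.1 (R 4.3.3) over 24 arrays. A probe had to be well above background on 5 of 6 arrays in at least 1 group, and a gene with several probes was represented by the brightest. Dose values come from a fit without covariates, and sex was tested with the slide as a random block (correlation 0.111), with Benjamini-Hochberg adjustment over 21253 features. Each array is a separately numbered rat.

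The genes and lists were chosen with earlier results of these data known. Named are all 10 tubulins, the other tested tubulins, up to 4 called genes of each other list and the 5 nearest to Tubb4b; Sntn and Actc1 exceed that number, and Ttc5, Nefl, Myh6 and Myl7 were not called; these 6 were added after their values were seen. Alternatives were the background correction (normexp), the scaling, the filter, the methods' t-test, fewer samples, sex or slide as a term, array weights, the probe rule and leaving out each rat. The fits were tested on simulated data that held no slide effect. The sex fits were run there without the slide block, so the model used for the sex tests was not tried.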

Additional observations from a re-analysis of the deposited data

Results flagged for a closer look

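In 48 sets of 6 rats (12 probes in 4 groups), 5 held a rat far from the other 5 by Dixon's test, which chance gives for about 1 in 20 sets. The probes share their rats, so the sets are not independent and no excess can be read from this count. The gap to the nearest rat, as a share of the range of the set, was 0.677 for Tubb5, 0.655 and 0.632 for the 2 probes of Tuba1b and 0.724 for Tuba1c, each time for the female numbered 38, the lowest rat at 1500 ppm. It was 0.686 for Tubb3 in the male numbered 18, the highest at that dose. The levels were 3.11, 5.27, 4.39, 4.32 and -5.23 in the same order. The level of Tubb4b in rat 38 was 6.28, which was not set apart.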

How the results depend on the processing

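No paired analysis was possible because every rat has a number of its own, so groups share none. Of 3455 values of 95 results under 14 other settings and 24 rats left out in turn, 3344 counted as kept. Sex differences were kept if they stayed on their side of the threshold, including reversals of sign where neither value passed. Dose differences were kept if they moved by less than the spread between rats. Counts above 0 could change by up to 1.5-fold, and medians of all features by a small amount. Genes called higher at 600 ppm were 1 with normexp, without scaling and with the slide as a fixed or random block, each time Tubb4b, and 0 to 1 with 1 rat left out (Tubb3 without control rat 1, otherwise Tubb4b); adjusted calls there were 1 with normexp. Adjusted calls at 1000 ppm were 1 with quantile or median scaling, without scaling, without the filter, on control and 1 dose only and with the slide as a random block, 0 with a fixed block, and 1 to 2 with 1 rat left out, Tubb5 being the call lost (2 without rat 6, 27, 11, 18, 36 or 38 and 1 without any other). At 1500 ppm they were 2 with normexp, sex as a covariate or array weights, 0 with a fixed block, and 1 to 2 with 1 rat left out (2 without control rat 21, with Tuba1a, or rat 38, with Tubb5); calls higher were 2 with the fixed block, Tubb4b and Tuba1a. Lower calls in the microtubule lists at 600 ppm were 0 to 1 with 1 rat left out. Tubb4b moved to 1.19 at 1000 ppm with normexp, to 1.18 and 1.20 at 1000 and 1500 ppm with the fixed block, and to -0.22 between those doses without scaling. Without scaling, the median of all features was 0.109 at 1000 ppm, and with normexp -0.119; relative to it Tubb4b was 0.99 and 1.31. With normexp, 8, 6 and 9 of 10 genes lay above 0 in order of dose. Genes that differ between the sexes were 2 with normexp, median scaling or no slide block, 3 with array weights, 7 without scaling and 0 to 2 with 1 rat left out. Without scaling Tuba1a turned to 0.16 higher in males (adjusted p = 0.0443 from limma). The sex difference of the dose effect at 1500 ppm had 1 gene with normexp and 3 with array weights. The causes were not tested.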
